A study of Mus musculus with 12 samples.

Results

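Endothelial integrins are described here through 9 subunit genes, taken by name from the deposited count table: the alpha subunits Itga1, Itga3, Itga4, Itga5, Itga6 and Itgav and the beta subunits Itgb1, Itgb3 and Itgb5. They are 9 of the 21638 genes in the table, and all 9 were among the 12577 genes that averaged 10 counts or more across the 12 libraries, the condition for being tested. RNA came from cortical endothelial cells of adult mouse brain, sorted as CD31-positive cells without CD41 (a platelet surface protein encoded by the integrin gene Itga2b) or CD45 (a leukocyte surface protein). The 4 groups had 3 libraries each. WT is the control group, and its Cre status and tamoxifen treatment are not stated. Hdac2 ECKO mice carried Hdac2lox/lox with Cdh5CreERT2, and Ezh2 ECKO mice carried Ezh2lox/lox with Cdh5CreERT2, both for deletion in endothelium. beta-catenin GOF mice carried Ctnnb1lox/lox with Cdh5CreERT2 for constitutive activation of beta-catenin. The mutants received 5 doses of tamoxifen at 75 mg/kg, and brains were taken 2 months later. Cdh5CreERT2 is a tamoxifen-inducible Cre recombinase driven by the promoter of the VE-cadherin gene, so it acts in endothelium of all organs and not in brain alone. Nothing in the labels says that the 3 libraries of a group came from separate animals, so the p-values measure the spread between these libraries, which may be technical.

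Integrins are membrane receptors made of 1 alpha and 1 beta subunit, which bind matrix proteins or proteins on other cells outside the cell and link them to actin through adaptors inside it. Most alpha subunits of endothelium pair with Itgb1: Itga1 then binds collagens and laminins, Itga3 and Itga6 bind laminins, Itga4 binds Vcam1 and fibronectin, and Itga5 binds fibronectin. Itgav pairs with several beta subunits, among them Itgb3 and Itgb5, and binds vitronectin, fibronectin and other proteins with an Arg-Gly-Asp sequence. In brain vessels, integrins that contain Itgb1 hold endothelial cells to the laminins and collagens of the basement membrane, and Itgav with Itgb3 or Itgb5 has been studied in growing vessels.

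The promoter windows of the 4 subunits on which most of the results below turn are printed first. These are Itga1 (the subunit that passed the test), Itgav and Itgb5 (the subunits with the smallest p-values in the group labelled Ezh2 ECKO) and Itgb1 (the common beta partner). RefSeq (GRCm38.p6) gave such a window for 7 of the 9 subunits, and each sequence below is the 250 bases before the annotated start of transcription, 5′ to 3′ on the strand of the gene, none of them in an annotated exon. Capitals mark matches to GGGCGG (a GC box, bound by Sp1 family factors), CCGGAA (bound by ETS family factors) and CTTTGA (bound by the TCF/LEF partners of beta-catenin), searched on both strands. No match overlapped another in these windows.
Itga1, chr13:115101965-115102214, minus strand: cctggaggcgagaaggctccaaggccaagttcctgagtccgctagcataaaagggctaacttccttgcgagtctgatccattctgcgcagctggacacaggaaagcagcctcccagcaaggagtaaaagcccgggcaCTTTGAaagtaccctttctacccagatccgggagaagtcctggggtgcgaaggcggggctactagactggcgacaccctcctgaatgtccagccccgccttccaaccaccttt
Itgav, chr2:83724147-83724396, plus strand: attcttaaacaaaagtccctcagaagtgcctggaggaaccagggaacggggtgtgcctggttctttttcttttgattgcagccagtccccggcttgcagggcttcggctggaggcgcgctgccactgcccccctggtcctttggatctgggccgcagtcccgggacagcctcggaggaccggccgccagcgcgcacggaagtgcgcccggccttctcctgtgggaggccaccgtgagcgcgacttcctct
Itgb1, chr8:128685404-128685653, plus strand: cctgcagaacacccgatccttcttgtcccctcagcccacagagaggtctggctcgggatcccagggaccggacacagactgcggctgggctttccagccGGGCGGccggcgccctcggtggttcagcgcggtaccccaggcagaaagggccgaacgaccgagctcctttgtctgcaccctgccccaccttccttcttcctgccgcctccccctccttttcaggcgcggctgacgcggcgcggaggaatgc
Itgb5, chr16:33829415-33829664, plus strand: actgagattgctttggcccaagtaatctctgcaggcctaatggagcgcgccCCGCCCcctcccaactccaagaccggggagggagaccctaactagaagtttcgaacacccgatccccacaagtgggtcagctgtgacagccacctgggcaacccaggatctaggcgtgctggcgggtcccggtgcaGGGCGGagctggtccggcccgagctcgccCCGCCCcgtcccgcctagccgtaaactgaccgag
Itga1 held 1 CTTTGA, Itgb1 held 1 GGGCGG and Itgb5 held 3 GGGCGG or its complement, while the window of Itgav held none of the 3. Over 32851 promoter windows of the same length, 32.7% held GGGCGG, 12% held CCGGAA and 13.8% held CTTTGA. These matches describe letters in the windows and nothing was measured on binding.

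In WT cortical endothelium, integrin RNA was dominated by 3 of the 9 subunits. Levels are compared between genes as CPM per kb, the TMM-scaled count per 1000000 divided by gene length, and are given as mean ± SD (n = 3). Itgb1 (chromosome 8, 128685654 to 128733200, plus strand) stood highest in WT at 50.6 ± 10.8 CPM per kb, followed by Itga6 (chromosome 2, 71745616 to 71858416, plus strand) at 34.2 ± 4.47 CPM per kb. The single libraries of these subunits touched, from 38.3 to 58.3 CPM per kb for Itgb1 and from 29.7 to 38.6 CPM per kb for Itga6. Itga1 (chromosome 13, 114953096 to 115101964, minus strand) came next at 11.6 ± 2.75 CPM per kb, with a range of 8.40 to 13.3 CPM per kb that did not meet that of Itga6 above it or Itgav below it. Itgav (chromosome 2, 83724397 to 83806916, plus strand) was at 1.57 ± 0.762 CPM per kb in WT. The remaining subunits were all below 1 CPM per kb on average: Itga5 at 0.922 ± 0.413, Itga3 at 0.891 ± 0.183, Itgb5 at 0.655 ± 0.306, Itgb3 at 0.418 ± 0.163 and Itga4 at 0.357 ± 0.162 CPM per kb. From Itgav down, each subunit's range in WT overlapped that of its neighbour in the order.

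Itga6, Itga1 and Itgb1 supplied most of the summed RNA in each of the 12 libraries. Itga6 supplied 63.8% to 71.8% of the summed CPM per kb of the 6 alpha subunits, and Itga1 supplied 20.3% to 29.1%. Itgb1 supplied 96.5% to 99.5% of the summed CPM per kb of the 3 beta subunits. The ratio of summed alpha to summed beta CPM per kb was 0.995 ± 0.301 in WT, 1.66 ± 0.375 in Hdac2 ECKO, 1.02 ± 0.0532 in beta-catenin GOF and 1.32 ± 0.323 in the group labelled Ezh2 ECKO (SD, n = 3 each). WT replicate 3, at 1.30, lay above Hdac2 ECKO replicate 2, at 1.25, so these 2 groups overlapped. Such a ratio sets long genes against short ones and moves with any trend on gene length, which is described below. These are levels of RNA, and in bulk samples fewer cells of a type and less RNA per cell cannot be told apart.

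**Figure D1:**
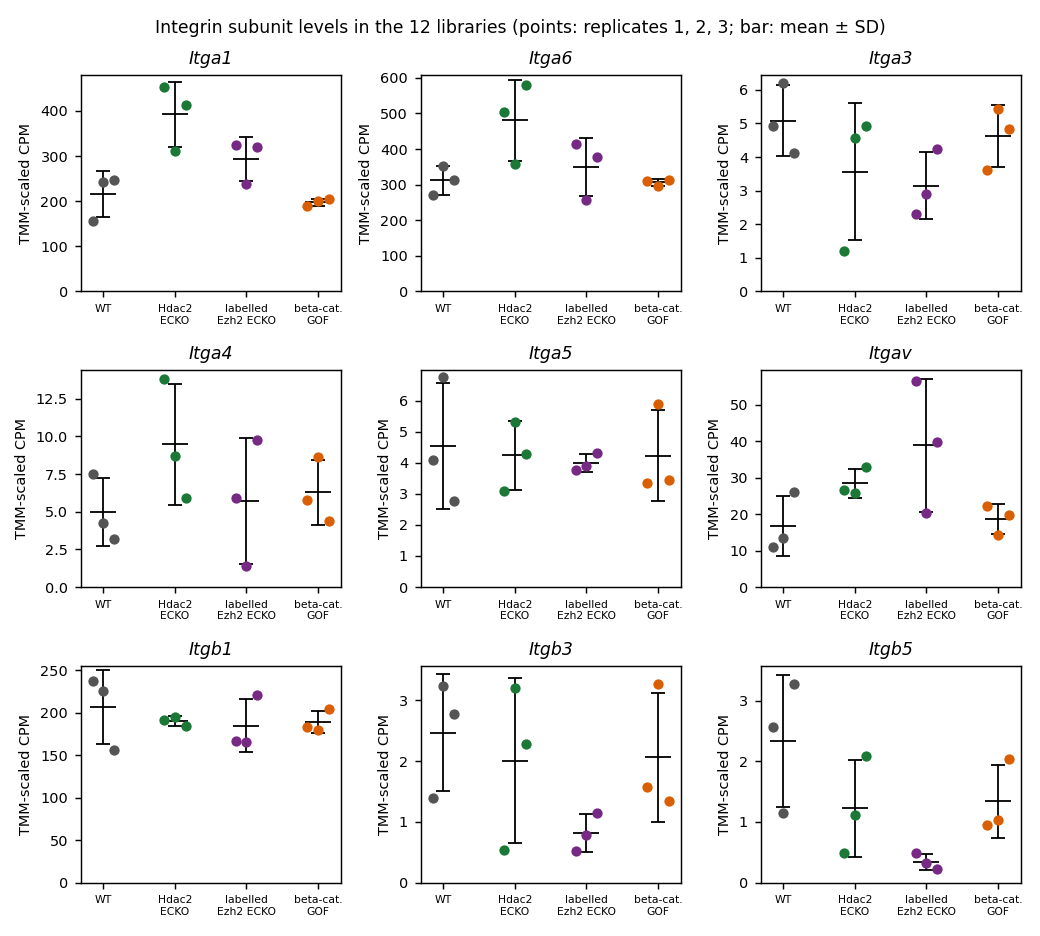
Level of each of the 9 integrin subunits in TMM-scaled counts per 1000000 (CPM, linear axes from 0) in the 4 groups; points are replicates 1, 2 and 3 and bars are mean ± SD. The 3 Hdac2 ECKO points of Itga1 (311 to 453 CPM) lie above the 3 WT points (156 to 247 CPM), and the 3 points of Itgb5 in the group labelled Ezh2 ECKO (0.216 to 0.486 CPM) lie below the WT points.

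The libraries held 24781070 to 36109975 counts, with 13922 to 17091 genes above 0. None of the 3 targeted genes passed the test in its own mutant against WT: in Hdac2 ECKO the RNA of Hdac2 itself differed from WT by −0.42 on the log2 scale (SE 0.24, adjusted p by edgeR 0.225), and Ctnnb1 had −0.17 (SE 0.29) in beta-catenin GOF (edgeR adjusted p 0.962). Ezh2 had 0.40 (SE 0.46, adjusted p by edgeR 0.615) in the group labelled Ezh2 ECKO, which goes against its label. Gene-level counts do not resolve a recombined exon. Hdac2 stood at 104 to 163 CPM in WT, 82.2 to 112 CPM in Hdac2 ECKO and 88.6 to 108 CPM in beta-catenin GOF. It was 108 to 140 CPM in the group labelled Ezh2 ECKO. The lower level of Hdac2 was thus not particular to Hdac2 ECKO. Ctnnb1 stood at 546 to 809 CPM in WT, 845 to 1324 CPM in Hdac2 ECKO, 754 to 1303 CPM in the group labelled Ezh2 ECKO and 478 to 696 CPM in beta-catenin GOF. Of the 12 endothelial markers, none was at 0 in all libraries of a group, and their summed level was 16411 to 22219 CPM in WT and 12762 to 15171 CPM in Hdac2 ECKO, without overlap. It was 16167 to 22086 CPM in the group labelled Ezh2 ECKO and 18882 to 21933 CPM in beta-catenin GOF. Most of this sum was Ly6c1, whose mean was 8132 CPM in Hdac2 ECKO, down from 12896 CPM for WT. The lower sum of Hdac2 ECKO was not shared by most markers. Against WT, 8 of the 12 had a log2 fold change above 0 and 4 below it, with a median of 0.37. By edgeR's test 1 was called higher and 0 lower. Along the first principal component, which held 27.4% of the variance, Hdac2 ECKO replicate 2 (10.6) stood apart from replicates 1 and 3 (88.9 and 61.1), and the library labelled Ezh2 ECKO 2 (−38.6) stood apart from replicates 1 and 3 (55.8 and 49.3) and near WT (−68.4 to −28.5).

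Hdac2 encodes a histone deacetylase, and the first of 3 comparisons that share the WT libraries asks which subunits differed in endothelium in which it was targeted. Against WT, Itga1, the collagen and laminin receptor subunit, was higher in Hdac2 ECKO, and no other subunit passed the test. Itga1 stood at 156, 242 and 247 CPM in WT replicates 1, 2 and 3 and at 453, 311 and 413 CPM in Hdac2 ECKO. Every Hdac2 ECKO library lay above every WT library. The log2 fold change was 0.87 (SE 0.25, 95% interval 0.33 to 1.40), a 1.82-fold rise (edgeR adjusted p 0.0448). That makes 1 of 9 subunits called, where 9.2% of all tested genes were called either way in this comparison, so the share is near the background. Exons of Itga1 overlap the predicted gene Gm49395 on the same strand, so its count may be split between them. Markers of pericytes and smooth muscle, given below, were also higher in these libraries. When each library was left out in turn, the call held without WT replicate 3 (0.98, edgeR adjusted p 0.0353) and without Hdac2 ECKO replicate 2 (0.96, edgeR adjusted p 0.027), the one that stood apart. Without WT replicate 1, WT replicate 2, Hdac2 ECKO replicate 1 or Hdac2 ECKO replicate 3 the log2 fold change was 0.68, 0.96, 0.73 and 0.81, and the edgeR adjusted p was 0.169, 0.106, 0.181 and 0.155. Those 4 fits called 0, 0, 1 and 0 of all tested genes, so the loss is not particular to Itga1. The fits without WT replicate 3 and without Hdac2 ECKO replicate 2 called 14.8% and 17.6% of all tested genes.

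Itga6, the laminin receptor subunit with the most RNA among the alpha subunits, did not pass in Hdac2 ECKO although its groups did not overlap. It stood at 271, 353 and 314 CPM in WT and at 503, 358 and 579 CPM in Hdac2 ECKO, where replicate 2 lay just above the highest WT library. The log2 fold change was 0.62 (SE 0.25, adjusted p by edgeR 0.106). Itga1 and Itga6 were 2 of 9 subunits without overlap, against 37.8% of all tested genes either way, and the 2 with an unadjusted p under 0.05, against 33.1%. Itga3 (chromosome 11, 95044474 to 95076801, minus strand), the other laminin receptor subunit, stood at 4.93, 6.21 and 4.13 CPM in WT and at 1.21, 4.57 and 4.92 CPM in Hdac2 ECKO. Only Hdac2 ECKO replicate 1 was low for Itga3, and the groups overlapped (log2 fold change −0.51, SE 0.51, adjusted p by edgeR 0.502).

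The subunits that bind fibronectin, Vcam1 or vitronectin did not pass in Hdac2 ECKO either. Itga4 (chromosome 2, 79255426 to 79333123, plus strand) stood at 7.53, 4.24 and 3.20 CPM in WT and at 13.8, 8.71 and 5.89 CPM in Hdac2 ECKO, with 1 WT library inside the Hdac2 ECKO range. Its log2 fold change was 0.92 (SE 0.57, adjusted p by edgeR 0.266). Itgav stood at 11.0, 13.3 and 26.2 CPM in WT and at 26.7, 25.8 and 33.1 CPM in Hdac2 ECKO. WT replicate 3 reached the Hdac2 ECKO range of Itgav, and the log2 fold change was 0.76 (SE 0.38, adjusted p by edgeR 0.176) with it and 1.23 (edgeR adjusted p 0.0495) without it. The fit without WT replicate 3 called 14.8% of all tested genes. Itga5 (chromosome 15, 103344286 to 103366763, minus strand), the fibronectin receptor subunit, stood at 2.78 to 6.78 CPM in WT and at 3.11 to 5.32 CPM in Hdac2 ECKO, a log2 fold change of −0.10 (SE 0.44, adjusted p by edgeR 0.894).

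The beta subunits were not called in Hdac2 ECKO. Itgb1 stood at 238, 226 and 156 CPM in WT and at 192, 196 and 184 CPM in Hdac2 ECKO, inside the WT range. Its log2 fold change was −0.12 (SE 0.23), and the 95% interval ran from −0.60 to 0.37 (edgeR adjusted p 0.745). Itgb3 (chromosome 11, 104608000 to 104670476, plus strand) stood at 1.39, 3.23 and 2.78 CPM in WT and at 0.530, 3.20 and 2.29 CPM in Hdac2 ECKO, and Itgb5 (chromosome 16, 33829665 to 33949338, plus strand) at 2.57, 1.14 and 3.28 CPM in WT and at 0.492, 1.11 and 2.08 CPM in Hdac2 ECKO. Hdac2 ECKO replicate 1 was the lowest of the 6 libraries for both. The log2 fold changes of −0.30 (SE 0.74) and −0.92 (SE 0.79) did not pass (edgeR adjusted p 0.806 and 0.431).

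The sign of the 9 log2 fold changes in Hdac2 ECKO split by gene length. Gene length here is the length column of the table. The 4 longest subunits, Itga1 at 18.6 kb, Itga4 at 13.98 kb, Itgav at 10.7 kb and Itga6 at 9.14 kb, had the 4 positive values (0.62 to 0.92), and the 5 shorter ones, from Itgb3 at 5.90 kb to Itgb5 at 3.55 kb, had the 5 negative values (−0.92 to −0.10). Over all 12577 tested genes, log2 fold change and length had a Spearman correlation of 0.44 in this comparison, 0.14 in beta-catenin GOF and 0.29 in the group labelled Ezh2 ECKO, given across genes that share libraries and with no test. Itga1 is longer than 98.9% of the tested genes. When the tested genes were put into 10 bins by length, the 1258 genes of the longest bin had a median log2 fold change of 0.76 in Hdac2 ECKO, with quartiles at 0.43 and 1.06. Itga1, Itga4 and Itgav belong to that bin and stood between its quartiles.

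When a smooth trend on length was removed from each library before the same test, the difference of Itga1 was near 0. Its log2 fold change in Hdac2 ECKO became 0.02 (SE 0.18, adjusted p by edgeR 0.953), and those of Itga4, Itga6 and Itgav became 0.12, 0.11 and 0.21, all with an edgeR adjusted p of at least 0.722. The shorter subunits moved less: Itgb1 became −0.06 and Itgb5 −0.77. In the group labelled Ezh2 ECKO, Itgav had 0.81 (SE 0.32, adjusted p by edgeR 0.147) and Itgb5 had −2.58 (SE 0.83, adjusted p by edgeR 0.0909), while Itga1, Itga4 and Itga6 turned to −0.09, −0.48 and −0.17. The removal takes out any real change that depends on length together with a technical one, and these cannot be told apart here.

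**Figure D2:**
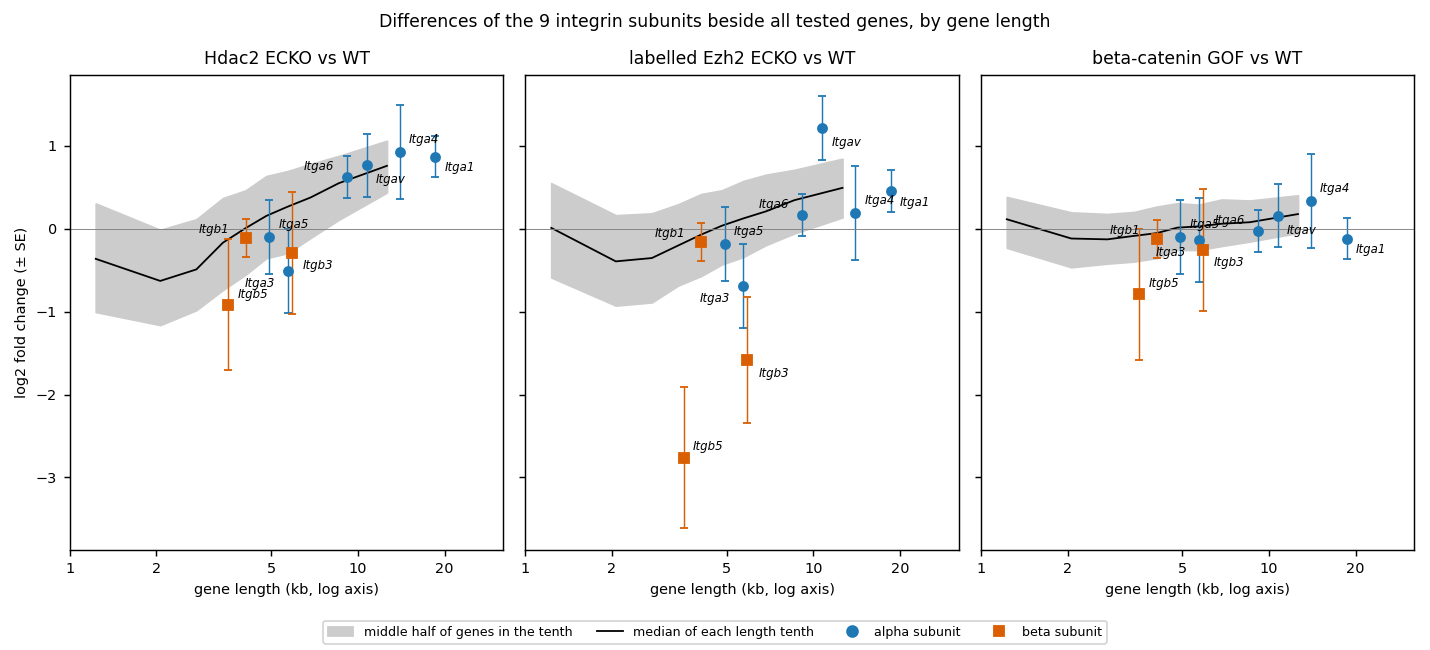
Log2 fold change ± SE of the 9 integrin subunits against gene length (kb, log axis) in the 3 mutants against WT; the line is the median and the band the range between quartiles in 10 bins of the 12577 tested genes by length. In Hdac2 ECKO the 4 long alpha subunits (0.62 to 0.92) lie along the band, and in the group labelled Ezh2 ECKO Itgav (1.21) lies above it and Itgb3 (−1.59) and Itgb5 (−2.76) below it.

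**Figure D3:**
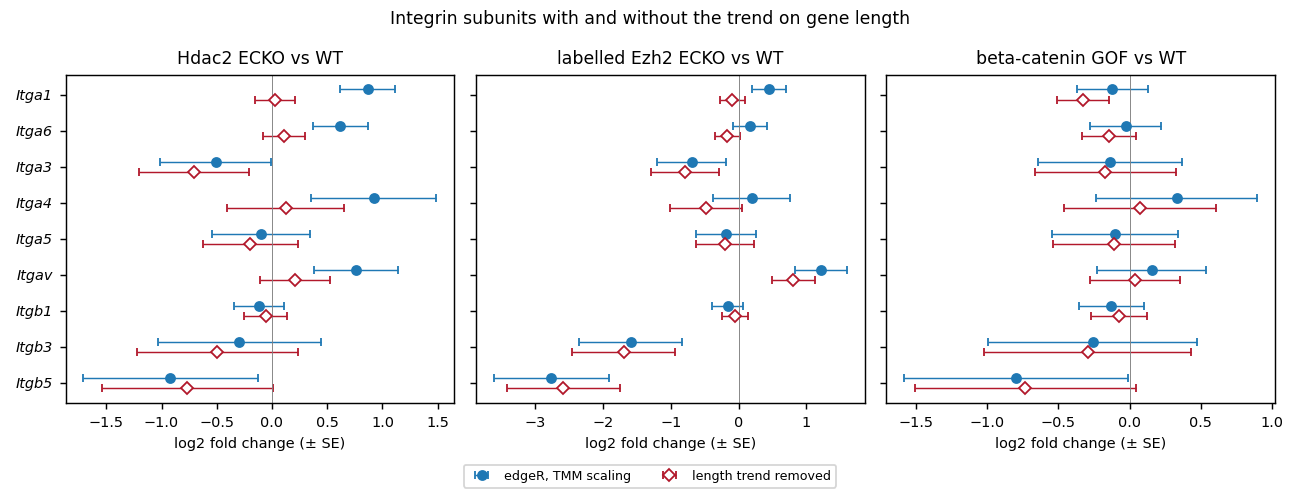
Log2 fold change ± SE of each subunit against WT from the main test (blue circles) and after a trend on gene length was removed from each library (open red diamonds); the horizontal axis of each panel has its own range. Itga1 in Hdac2 ECKO moves from 0.87 to 0.02, and Itgb5 in the group labelled Ezh2 ECKO moves from −2.76 to −2.58.

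Ezh2 encodes the methyltransferase of Polycomb repressive complex 2, and the second comparison sets the group labelled Ezh2 ECKO against WT. Here 0 of the 9 subunits passed edgeR's test, where 1.03% of all tested genes were called either way. Itgav and Itgb5 were the 2 subunits with an unadjusted p under 0.05, against 24.7% of all tested genes, and DESeq2 called both, with adjusted p 0.0328 for Itgav and 0.0128 for Itgb5, where it called 10.2% of all tested genes. Itgav and its partner subunits Itgb3 and Itgb5 had the 3 largest differences, in opposite directions.

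Itgav stood at 56.7, 20.2 and 39.8 CPM in the group labelled Ezh2 ECKO, beside 11.0, 13.3 and 26.2 CPM in WT. In that group, replicates 1 and 3 were above all WT libraries, and the library labelled Ezh2 ECKO 2, the one that stood apart, was below WT replicate 3. The log2 fold change was 1.21 (SE 0.39, 95% interval 0.39 to 2.03, edgeR adjusted p 0.0896), larger than that of 94.4% of all tested genes. Without the library labelled Ezh2 ECKO 2 it was 1.52 (edgeR adjusted p 0.0143), and without WT replicate 3 it was 1.68 (edgeR adjusted p 0.0242). Those 2 fits called 18.5% and 9.04% of all tested genes. The other fits that left out 1 library gave 0.82 to 1.19 for Itgav and did not pass, where they called 2 to 7 of all tested genes. Exons of Itgav overlap Gm13684 on the opposite strand, and use of strand in the counting is not given in the sources used here, so reads of the 2 genes could not be told apart.

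Itgb5, a vitronectin receptor subunit, was at the bottom of the 9 in the group labelled Ezh2 ECKO. It stood at 0.486, 0.315 and 0.216 CPM there, from 15, 8 and 6 counts, and at 2.57, 1.14 and 3.28 CPM in WT, from 74, 36 and 92 counts. All 3 libraries were below all WT libraries. The log2 fold change of −2.76 (SE 0.85, 95% interval −4.56 to −0.96) missed the threshold (edgeR adjusted p 0.0841), and its adjusted p stayed between 0.066 and 0.263 when each library was left out in turn. Itgb3, the other vitronectin receptor subunit, stood at 0.519, 0.787 and 1.15 CPM, from 16, 20 and 32 counts, also below all WT libraries. Its log2 fold change was −1.59 (SE 0.76, adjusted p by edgeR 0.209). These were 2 of 9 subunits without overlap, against 22% of all tested genes either way.

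Set as a ratio within each library, Itgav over the sum of Itgb3 and Itgb5 in CPM per kb was 1.07, 1.43 and 1.75 in WT and 23.5, 8.48 and 14.5 in the group labelled Ezh2 ECKO. The 3 libraries labelled Ezh2 ECKO were above all WT libraries, at 15.5 ± 7.54 against 1.41 ± 0.342 (SD, n = 3 each). The ratio was 10.9, 2.81 and 3.16 in Hdac2 ECKO, also above WT, and 3.88, 1.56 and 2.30 in beta-catenin GOF, which overlapped WT. The denominators are low, and the ratio was put together after the levels of its 3 subunits were known, so it is given without a test. Like the ratio of alpha to beta subunits, it sets a longer gene against shorter ones and moves with any trend on gene length.

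**Figure D4:**
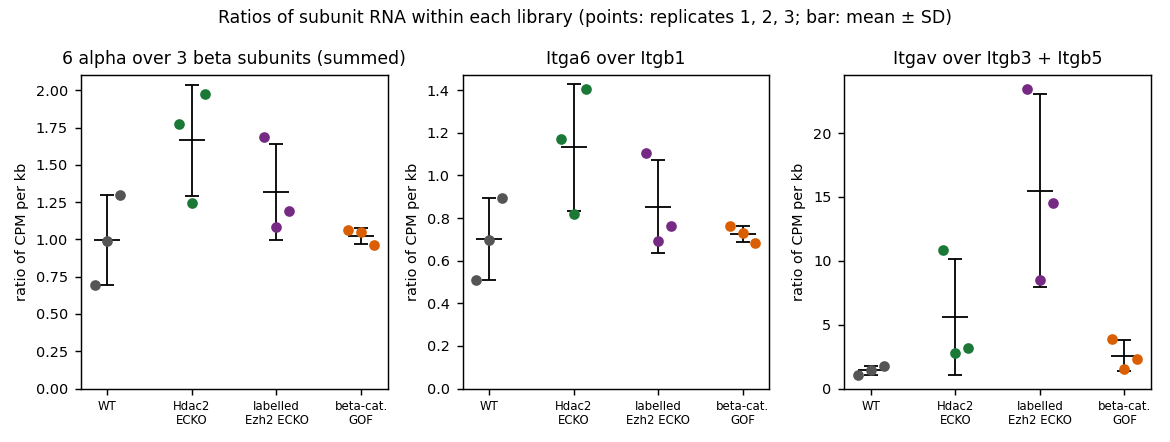
Ratios of CPM per kb within each library (linear axes from 0) for the 6 alpha over the 3 beta subunits, Itga6 over Itgb1, and Itgav over the sum of Itgb3 and Itgb5; points are replicates 1, 2 and 3 and bars are mean ± SD. In the right panel the 3 libraries labelled Ezh2 ECKO (8.48 to 23.5) lie above the 3 WT libraries (1.07 to 1.75).

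The remaining subunits overlapped WT in the group labelled Ezh2 ECKO. Itga1 stood at 324, 237 and 321 CPM, with replicate 2 again inside the WT range (log2 fold change 0.45, SE 0.25, adjusted p by edgeR 0.271). Itga6 stood at 413, 258 and 379 CPM, with replicate 2 below all WT libraries (log2 fold change 0.16, SE 0.25, adjusted p by edgeR 0.72). Itgb1 stood at 167, 166 and 221 CPM, a log2 fold change of −0.16 (SE 0.23, adjusted p by edgeR 0.693). Itga3, Itga4 and Itga5 had −0.69, 0.19 and −0.19, with SE between 0.44 and 0.57. The 3 libraries of Itga4 were far apart, at 5.90, 1.42 and 9.77 CPM, and its exons overlap Cerkl on the opposite strand.

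beta-catenin, encoded by Ctnnb1, is the effector of canonical Wnt signalling, which maintains the blood-brain barrier, and it also binds VE-cadherin at junctions. In beta-catenin GOF against WT, 0 of the 9 subunits passed edgeR's test and 0 had an unadjusted p under 0.05, where 0% of all tested genes were called. Of all tested genes 763 (6.07%) had an unadjusted p under 0.05, and DESeq2 called 38. Of the 9 subunits DESeq2 and limma with sample quality weights called 0. Itga1 stood at 189, 200 and 204 CPM and Itga6 at 311, 295 and 313 CPM, both inside the WT range and closer together than in any other group. Their log2 fold changes were −0.12 (95% interval −0.65 to 0.41) and −0.03 (95% interval −0.56 to 0.51). Itgb1 stood at 183, 180 and 204 CPM, with a log2 fold change of −0.13 (95% interval −0.62 to 0.36). For the remaining subunits the intervals are wider: from −1.21 to 0.93 for Itga3, −0.87 to 1.53 for Itga4, −1.05 to 0.84 for Itga5, −0.66 to 0.96 for Itgav, −1.82 to 1.30 for Itgb3 and −2.47 to 0.88 for Itgb5. The 2 ends of the 9 values were −0.79 (Itgb5, SE 0.79) and 0.33 (Itga4, SE 0.56), and each of the 9 overlapped WT, where 12.7% of all tested genes did not.

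Comparing the mutants with each other tests whether their differences from WT differ, and 0 of the 9 subunits passed edgeR's test in any of the 3 pairs. In beta-catenin GOF against Hdac2 ECKO, 0.0716% of all tested genes were called. Itga1 was the nearest to the threshold there, with all 3 beta-catenin GOF libraries below all Hdac2 ECKO libraries and a log2 fold change of −0.99 (SE 0.25, unadjusted p 0.00124, edgeR adjusted p 0.168). Itga6, at −0.65 (edgeR adjusted p 0.181), also had an unadjusted p under 0.05, where 21.1% of all tested genes did. DESeq2 called Itga1 alone (adjusted p 0.0158), and limma with sample quality weights called Itga1, Itga6 and Itgav. Of all tested genes DESeq2 called 4.94% and the weights 26.5% in this pair. Itga1, Itga6 and Itgav were the 3 of 9 subunits without overlap in this pair, against 32% of all tested genes.

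In beta-catenin GOF against the group labelled Ezh2 ECKO, 0.0636% of all tested genes were called. An unadjusted p under 0.05 was found for 3 of 9 subunits and 13.2% of all tested genes. These were Itgav (log2 fold change −1.06, SE 0.38, adjusted p by edgeR 0.311), Itgb5 (1.97, SE 0.83, adjusted p by edgeR 0.347) and Itga1 (−0.57, SE 0.25, adjusted p by edgeR 0.36). DESeq2 called 0 of the 9 and limma with sample quality weights called Itgav, where they called 1.14% and 11.7% of all tested genes. Itga1, Itgb3 and Itgb5 did not overlap, 3 of 9 against 16.6% of all tested genes. In Hdac2 ECKO against the group labelled Ezh2 ECKO, 0.0239% of all tested genes were called. Itgb5 was the 1 subunit with an unadjusted p under 0.05, against 8.19% of all tested genes (1.84, SE 0.83, adjusted p by edgeR 0.606) and the 1 of 9 without overlap, against 13.2% of all tested genes, and DESeq2 and limma with sample quality weights called 0. Itgav had −0.45 (SE 0.38, 95% interval −1.26 to 0.36, edgeR adjusted p 0.751), so its differences from WT in these 2 mutants were not told apart.

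The other 18 integrin genes of the table had a summed level of 8.81 to 40.5 CPM per library. Itga2b supplied much of it, and at 1.35 ± 0.445 CPM per kb in WT (SD, n = 3) its mean lay between those of Itgav and Itga5. Of them 9 were tested and 9 did not reach a mean count of 10, among them the leukocyte subunits Itgal, Itgam, Itgax and Itgb2, with 0 to 22 counts in any library. Against WT, 0 of the 9 tested passed edgeR's test in each mutant, with 3, 1 and 2 at an unadjusted p under 0.05 in Hdac2 ECKO, the group labelled Ezh2 ECKO and beta-catenin GOF, against 33.1%, 24.7% and 6.07% of all tested genes. DESeq2 called 0, 1 and 0, where it called 20.3%, 10.2% and 0.302% of all tested genes. In Hdac2 ECKO the count was 3 without the filter on low counts, 2 with sample quality weights and 2 with a replicate block. Of all tested genes these settings called 11.2%, 42.7% and 14.6%. The fit without the filter tested 20343 genes, so its 3 may include subunits beyond these 9. The count was 1 each with scaling by library size alone, with only the 2 groups and without Hdac2 ECKO replicate 2. These called 14.5%, 11.5% and 17.6% of all tested genes. In the group labelled Ezh2 ECKO it was 1 without the filter and 1 without replicate 2, which called 6.72% and 18.5% of all tested genes. For the 9 tested subunits the median log2 fold change was 1.71 in Hdac2 ECKO and 0.33 in beta-catenin GOF. It was 0.65 in the group labelled Ezh2 ECKO. Over all tested genes the medians were 0.10, 0.01 and 0.05 in the same order. Most of the subunit values rest on few counts.

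Itga7, a laminin receptor subunit of muscle, had counts of 4, 1 and 0 (WT), 68, 8 and 43 (Hdac2 ECKO), 44, 9 and 46 (labelled Ezh2 ECKO) and 52, 38 and 2 (beta-catenin GOF). It was above WT in all libraries of the first 2 mutants and missed the threshold in each (edgeR adjusted p 0.0553, 0.101 and 0.715). Itga2, a collagen receptor subunit, had 0, 0 and 2 counts in WT and 89, 16 and 6 in Hdac2 ECKO (edgeR adjusted p 0.0804). Itga8, which pairs with Itgb1 and binds nephronectin, had 12, 0 and 0 counts in WT and 72, 40 and 114 in Hdac2 ECKO (edgeR adjusted p 0.138). Itga10, a further collagen receptor subunit, had 8, 6 and 46 counts in WT and 196, 23 and 47 in Hdac2 ECKO. Itgb8, a partner of Itgav that binds latent TGF-beta, had 0 to 6 counts in WT, 4 to 14 in Hdac2 ECKO and 78 in the library labelled Ezh2 ECKO 3. Itgb4, the partner of Itga6 in epithelia, had 15 to 84 counts in every library, Itga9 had 0 to 64 and Itgb2l had 0 to 54.

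Itga2b encodes CD41, the protein whose carriers the sort removed, and its RNA was above 0 in every library, with 158 to 962 counts. It stood at 5.48, 6.52 and 10.1 CPM in WT and, in beta-catenin GOF, at 32.8, 15.8 and 8.60 CPM (a log2 difference of 1.37, SE 0.49, adjusted p by edgeR 0.715). Platelet markers (7 genes, Itga2b among them) summed to 5.68 to 51.9 CPM over the 12 libraries, and Gp5 was at 0 in WT. In the library with the lowest platelet sum, Hdac2 ECKO replicate 2, Itgb3, the beta partner of Itga2b in platelets, was at 3.20 CPM, near the top of its range. The part of platelet RNA in the level of Itgb3 was not tested.

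Ligands of integrins were listed as 32 genes, of which 25 were tested. In Hdac2 ECKO 4 of the 25 rose, where 3.82% of all tested genes did, and none fell. The median log2 fold change of the 25 was 0.73, beside 0.10 over all tested genes. It was 0.76 over the bin of the longest genes described above. The part of gene length in the ligand medians was not tested. Hspg2, the basement membrane proteoglycan perlecan, stood at 2.71, 3.99 and 3.77 CPM in WT and rose to 11.7, 11.6 and 9.67 CPM (log2 fold change 1.65, SE 0.33, adjusted p by edgeR 0.0323). Lama4, a laminin alpha chain of vessels, rose by 1.10 (edgeR adjusted p 0.0338). Ccn2, a matrix protein of the CCN family, rose by 1.18 (edgeR adjusted p 0.0412) and Nid2, a linker of laminin and collagen networks, rose by 1.30 (edgeR adjusted p 0.0457). The count was 2 with the length trend removed, 6 with DESeq2, 10 with sample quality weights and 8 with scaling by library size alone. Of all tested genes these settings called 4.82%, 20.3%, 42.7% and 14.5%. Without WT replicate 1, WT replicate 2, Hdac2 ECKO replicate 1 or Hdac2 ECKO replicate 3 the count of ligands was 0, in fits that called 0 or 1 of all tested genes. Without WT replicate 3 or Hdac2 ECKO replicate 2 it was 6 and 5, where 14.8% and 17.6% of all tested genes were called. Pericyte and smooth muscle markers summed to 133 to 346 CPM in these libraries and to 60.8 to 125 CPM in WT.

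In the group labelled Ezh2 ECKO, Ccn2 was the 1 ligand that rose, from 18.5, 14.2 and 20.05 CPM to 69.2, 45.4 and 35.0 CPM (log2 fold change 1.503, SE 0.33, adjusted p by edgeR 0.0478). The count of ligands was 0 with only these 2 groups in the fit, with median-ratio size factors and with library size as the one scaling. It was 5 with DESeq2 and 8 with sample quality weights, which called 10.2% and 29.8% of all tested genes. It was 0 without WT replicate 1, WT replicate 2 or the libraries labelled Ezh2 ECKO 1 or 3, in fits that called 2 to 7 of all tested genes. Without WT replicate 3 it was 3, and without the library labelled Ezh2 ECKO 2 it was 6, where 9.04% and 18.5% of all tested genes were called. The median over the 25 ligands was 0.45, beside 0.05 over all tested genes and 0.49 over the bin of the longest genes. In beta-catenin GOF 0 of the 25 passed edgeR's test and DESeq2 called 0. An unadjusted p under 0.05 was found for 10 of the 25 and for 6.07% of all tested genes. The median was 0.65, beside 0.01 over all tested genes and 0.17 over the bin of the longest genes. The smallest p-values there belonged to Npnt, the nephronectin gene, with a log2 fold change of 1.80 (edgeR adjusted p 0.511), and Nid1, with 0.93 (edgeR adjusted p 0.658).

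Inside the cell, 35 genes of the adhesion machinery that binds integrin tails were listed and 32 tested. In Hdac2 ECKO 3 of them rose and 4 fell, where 3.82% and 5.38% of all tested genes did. Rsu1, a partner of the PINCH adaptors, fell by 1.06 (edgeR adjusted p 0.0338), and Sharpin, which binds alpha tails and keeps integrins inactive, fell by 1.34 (edgeR adjusted p 0.036). Lims2, a PINCH adaptor, fell by 1.38 (edgeR adjusted p 0.0398) and Ilk, the integrin-linked pseudokinase that binds PINCH and parvin, fell by 1.08 (edgeR adjusted p 0.0488). Crkl, an adaptor at focal adhesions, rose by 1.25 (edgeR adjusted p 0.0417) and Flna, the actin crosslinker filamin A that binds beta tails, rose by 1.03 (edgeR adjusted p 0.0466). The third that rose was Dab2, an endocytic adaptor for integrins (1.03, edgeR adjusted p 0.0498), which is beyond the 6 genes the naming rule takes and is named after its values were seen. The split depended on the scaling: it was 9 that rose and 1 that fell with scaling by library size alone, which moved the median of all tested genes from 0.10 to 0.34, and 0 and 2 with the length trend removed. Of all tested genes these 2 settings called 14.5% and 4.82%. The number called in the list was 12 with DESeq2 and 19 with sample quality weights, which called 20.3% and 42.7% of all tested genes. The 4 fits that called 0 or 1 of all tested genes called 0 here. Without WT replicate 3 or Hdac2 ECKO replicate 2 the number was 8 and 9, where 14.8% and 17.6% of all tested genes were called. The median over the list was 0.34.

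Neither of the other mutants had a call among these 32 genes by edgeR's test. In beta-catenin GOF 1 had an unadjusted p under 0.05, where 6.07% of all tested genes had. DESeq2 called 0 there, and the list median was 0.17. The group labelled Ezh2 ECKO had 11 at an unadjusted p under 0.05 and 4 by DESeq2, where 24.7% and 10.2% of all tested genes had, with a list median of 0.31. The smallest p-values were those of Rsu1 (log2 fold change −0.95, edgeR adjusted p 0.0642) and Dab2 (0.99, edgeR adjusted p 0.0869), in the group labelled Ezh2 ECKO. In beta-catenin GOF they were those of Parvb, a parvin (0.68, edgeR adjusted p 0.73), and again Rsu1 (−0.47, edgeR adjusted p 0.858).

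Of 9 membrane proteins that associate with integrins sideways, all tested, 3 fell in Hdac2 ECKO, where 5.38% of all tested genes did, and none rose. Cd9, a tetraspanin, stood at 581, 665 and 844 CPM in WT and fell to 195, 266 and 288 CPM (log2 fold change −1.48, SE 0.32, adjusted p by edgeR 0.0323). Bsg, basigin, a partner of laminin-binding integrins, fell by 1.75 (edgeR adjusted p 0.0405), and Cd81, another tetraspanin, fell by 1.28 (edgeR adjusted p 0.042). The list median was −0.73. The count was 0 with the length trend removed, 4 with DESeq2 and 6 with sample quality weights, where 4.82%, 20.3% and 42.7% of all tested genes were called. It was 0 in the 4 fits that called 0 or 1 of all tested genes. Without WT replicate 3 or Hdac2 ECKO replicate 2 it was 4 and 3, where 14.8% and 17.6% of all tested genes were called. beta-catenin GOF and the group labelled Ezh2 ECKO had 0 calls by edgeR's test and medians of −0.12 and −0.74. They had 1 and 5 at an unadjusted p under 0.05, where 6.07% and 24.7% of all tested genes had. DESeq2 called 0 and 1 in these 2 groups, where it called 0.302% and 10.2% of all tested genes. Cd9 had the smallest p in both, at −0.71 (edgeR adjusted p 0.801) and −1.02 (edgeR adjusted p 0.0873), followed by Cd63 at 0.66 (edgeR adjusted p 0.909) in the former and Cd151 at −0.74 (edgeR adjusted p 0.14) in the latter.

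**Figure D5:**
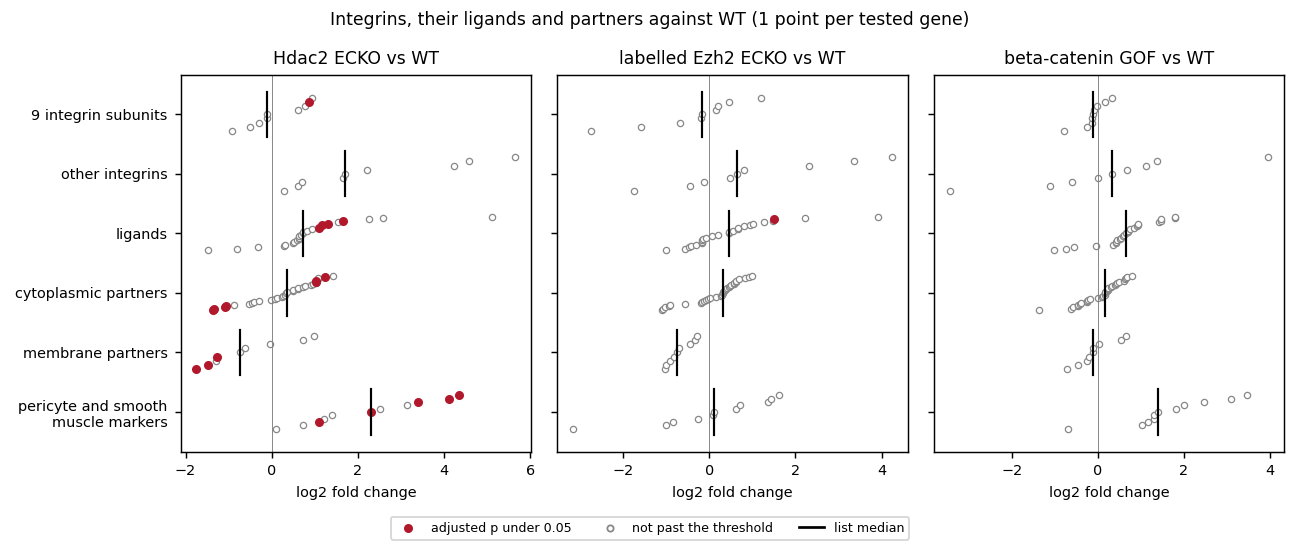
Log2 fold change against WT of each tested gene of the 9 subunits, the other integrins, their ligands, cytoplasmic and membrane partners, and pericyte and smooth muscle markers; red points passed an edgeR adjusted p of 0.05, open points did not, and bars are list medians. In Hdac2 ECKO 4 ligands lie among the red points above 0 and 3 membrane partners among those below 0, and in beta-catenin GOF no point is red.

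Markers of other cells moved with some of these groups. Of 12 pericyte and smooth muscle markers 11 were tested and 5 rose in Hdac2 ECKO (Pdgfrb, Rgs5, Myh11, Cspg4 and Higd1b), where 3.82% of all tested genes did, and their summed level was 60.8 to 125 CPM in WT and 133 to 346 CPM in Hdac2 ECKO. It was 57.9 to 80.5 CPM in the group labelled Ezh2 ECKO and 114 to 430 CPM in beta-catenin GOF, and none of the 12 was at 0 in all libraries of a group. Within Hdac2 ECKO the sums were 346, 133 and 250 CPM in replicates 1, 2 and 3, and Itga1 stood at 453, 311 and 413 CPM in the same order. beta-catenin GOF replicate 1, which had the highest sum of the 12 libraries, had 189 CPM of Itga1 and 311 CPM of Itga6, inside the WT range. Mural cells also express Itga1, Itga7 and Itga8 as well as the basement membrane ligands, and the part of these cells in the differences of Hdac2 ECKO was not tested. Red cell markers (3 genes) summed to 19617 to 33720 CPM in WT, 212 to 11724 CPM in Hdac2 ECKO, 1456 to 3600 CPM in the group labelled Ezh2 ECKO and 271 to 20835 CPM in beta-catenin GOF. Basigin is also a protein of red cells, and the part of red cell RNA in the fall of Bsg was not tested. Microglia and leukocyte markers (9 genes) summed to 2.22 to 14.4 CPM, and fibroblast markers (6 genes) to 0.157 to 5.72 CPM. Astrocyte markers (6 genes) summed to 23.9 to 36.2 CPM in WT, below all mutant libraries, at 50.6 to 76.1 CPM in Hdac2 ECKO, 43.8 to 79.5 CPM in the group labelled Ezh2 ECKO and 37.2 to 54.1 CPM in beta-catenin GOF. Gja1 supplied most of these sums, at means of 25.9 CPM in WT and 49.9, 50.1 and 42.7 CPM in the mutants, in that order. Gfap had lower means in the mutants, at 0.852 CPM in WT and 0.174, 0.192 and 0.671 CPM in the same order. Of the 4 tested astrocyte markers 3, 3 and 2 had a log2 fold change above 0 in these mutants. Oligodendrocyte markers (4 genes) summed to 2.11 to 65.7 CPM and neuron markers (5 genes) to 0.157 to 3.47 CPM over the 12 libraries. The part of these cells in the differences was not tested.

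The gene whose log2 CPM over the 12 libraries was most like that of each subunit was found among all tested genes, as a description over libraries that share their depth and length trends. For Itga1 it was Herc4 (r = 0.97), for Itga6 Nrd1 (r = 0.96), for Itgav Clic4 (r = 0.96), for Itgb1 Rmc1 (r = 0.95), for Itga3 Carm1 (r = 0.94) and for Itga4 Slc44a2 (r = 0.93). The remaining subunits had lower best values, with Ces2e for Itgb5 (r = 0.90), Sult5a1 for Itgb3 (r = 0.88) and Eng, the endothelial co-receptor endoglin, for Itga5 (r = 0.84). Among the 9 subunits themselves, Itga1 and Itga6 were most alike (r = 0.89), followed by Itga3 and Itgb3 (r = 0.82). The best partner of Itgb1 among the 9 was Itga5 (r = 0.44).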

How the data were processed

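Whole-gene read counts were analysed for 12 libraries in 4 groups of 3, grouped by their titles. The counts are those the authors deposited: the table is titled as normalized, but its values are whole numbers that sum to different totals per library and are mostly even at low values, so they were treated as raw counts of read mates. Per the submitters' processing notes, FastQC, cutadapt, STAR, featureCounts and DESeq2 were used with mm10; their versions and settings are not given in the sources used here. Libraries were made with a SMART-Seq v4 kit, per the labels' protocols. Gene starts were raised by 1, after which 21281 genes matched the GENCODE annotation of GRCm38.

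Genes that averaged 10 counts or more were kept, and edgeR 4.0.16 (R 4.3.3, TMM scaling, quasi-likelihood test) fitted 1 model over the 12 libraries and 6 comparisons. P-values are two-sided and adjusted by Benjamini-Hochberg over the 12577 tested genes per comparison, with a threshold of 0.05. SE and 95% intervals come from the F statistic and its degrees of freedom. CPM are counts per 1000000 of the TMM-scaled total, and correlations used log2 CPM with a prior count of 1. A count of 3 corresponds to 0.0792 to 0.118 CPM. Where both mates of a read pair were counted, 3 counts stand for fewer pairs, so this limit understates counting error. It covers no other error. The scripts were tested on simulated data. DESeq2 1.42.0, limma 3.58.1 with sample quality weights, other scalings, no filter, a lowess trend on gene length (span 0.3), only the 2 groups compared, a replicate block and leaving out each library were alternatives.

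The members and lists were chosen with earlier results of these data known. The text names all 9 subunits, the other tested integrins, and per list and comparison with WT up to 6 called genes by p, or the 2 smallest p where none was called.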

Additional observations from a re-analysis of the deposited data

How the results depend on the processing

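Of the 9 subunits, 1 was called in Hdac2 ECKO against WT, and this count became 0 with median-ratio size factors, with the length trend removed and with only the 2 groups compared, 2 with scaling by library size alone, 3 with sample quality weights and 0 to 2 when each library was left out in turn. Of all tested genes, 8.34%, 4.82% and 11.5% were called in the settings that gave 0, in that order. With library size alone 14.5% were called, with sample quality weights 42.7%, and with a library left out 0% to 17.6%. In the group labelled Ezh2 ECKO against WT the count of 0 became 2 with DESeq2, 1 without the filter on low counts, 1 with sample quality weights and 0 to 1 with a library left out. Of all tested genes these called 10.2%, 6.72%, 29.8% and 0.0159% to 18.5%. In beta-catenin GOF against Hdac2 ECKO the count of subunits went from 0 to 1 with DESeq2, 1 without the filter, 3 with sample quality weights and 0 to 1 with a library left out. Of all tested genes these called 4.94%, 4.81%, 26.5% and 0% to 4.3%. Against the group labelled Ezh2 ECKO the count of subunits went to 1 with sample quality weights and 0 to 1 with a library left out. Of all tested genes these called 11.7% and 0.00795% to 5.81%. The count of subunits was 0 under each alternative in beta-catenin GOF against WT and in Hdac2 ECKO against the group labelled Ezh2 ECKO. The cause of these shifts was not tested.

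Some log2 fold changes against WT changed sign. Scaling by library size alone gave 0.15 for Itga5, 0.12 for Itgb1 and 0.0024 for Itgb3 in Hdac2 ECKO and 0.029 for Itga6 in beta-catenin GOF, and removing the length trend gave −0.093 for Itga1, −0.48 for Itga4 and −0.17 for Itga6 in the group labelled Ezh2 ECKO. With 1 library left out, Hdac2 ECKO gave −0.36 to 0.30 for Itga5 and −0.85 to 0.14 for Itgb3, and the group labelled Ezh2 ECKO gave −0.45 to 0.65 for Itga4 and −0.45 to 0.21 for Itga5. beta-catenin GOF gave −0.27 to 0.031 for Itga3, −0.42 to 0.30 for Itga5, −0.12 to 0.069 for Itga6 and −0.077 to 0.62 for Itgav. Among the targeted genes, Hdac2 ran from −0.23 to 0.10 in the group labelled Ezh2 ECKO and Ctnnb1 from −0.31 to 0.016 in beta-catenin GOF. Arms with a library left out held 2 libraries.

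Over all tested genes, the number called in Hdac2 ECKO against WT was 1157, 0 to 2220 with a library left out and 606 to 5374 under the other alternatives; in the group labelled Ezh2 ECKO it was 129, 2 to 2328 and 17 to 3743. With a replicate block, 1 subunit was called in Hdac2 ECKO against WT (Itga1, edgeR adjusted p 0.0436) and 0 in the other comparisons. Same-numbered libraries had deviations correlated from −0.12 to 0.25, and the numbers were not treated as pairs. Itgb3 and Itgb5 had 6 to 124 counts per library, the fewest of the 9, and these stand for fewer read pairs where both mates were counted.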
